A study of Homo sapiens with 18 samples.

Results

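Transcripts of 10 genes of the NOTCH pathway were followed in Ewing sarcoma cells after depletion of the EWSR1::FLI1 fusion. The genes are the receptors NOTCH1, NOTCH2 and NOTCH3, the ligands JAG1, JAG2 and DLL1, the glycosyltransferase LFNG, and the transcription factors HES1, HEY1 and HEY2, which are classical targets of the pathway. They were taken by symbol from the 58381 gene rows of each of 3 count tables, and each symbol was found in all of them. Ewing sarcoma is a tumour of bone and soft tissue driven by a fusion of EWSR1 to an ETS family transcription factor. The established lines A673, TC-32 and TC-71 carry the fusion of EWSR1 to FLI1 and were reverse transfected with a small interfering RNA at 20 nM. The RNA was a negative control (siNeg) or one against FLI1 (siFLI1), which reaches the fusion transcript, and each line gave 3 libraries of each kind, so that 18 libraries formed 6 groups. All cells of both arms therefore carried the fusion and received a transfection, and each line stands for a single tumour. TC-32 and TC-71 were grown in RPMI and A673 in DMEM, and the tables mark the TC-32 and TC-71 columns with 48 h and the A673 columns with no time.

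NOTCH receptors are membrane proteins activated by Jagged and Delta ligands on neighbouring cells. Binding lets an ADAM protease and then gamma-secretase cut the receptor, and the freed intracellular domain joins the DNA-binding protein RBPJ and a Mastermind coactivator in the nucleus to turn on genes such as those of the HES and HEY repressors. Fringe enzymes such as LFNG modify the sugars of the receptor and change which ligands it answers to, and in Ewing sarcoma the fusion has been described as a suppressor of NOTCH signalling.

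FLI1 itself fell in every line, its log2 fold change being -2.09 for A673, -1.47 for TC-71 and -1.03 for TC-32 by edgeR's quasi-likelihood test of siFLI1 against siNeg. Total counts ran from 19685354 to 37234528 per library in TC-71, from 24102487 to 33669271 in TC-32 and from 114564479 to 120993595 in A673, and the median biological coefficient of variation lay between 5.11% and 5.53%. Of 10 genes that mark Ewing sarcoma cells, all were detected in TC-32 and A673. In TC-71, 9 of them entered the test, while CD99, their surface antigen, had 0 counts in all libraries. CD99 lies in a region shared by the X and Y chromosomes, and the row of its Y copy was left out here. TC-71 was counted with a different program than the other lines, and whether the 0 of CD99 comes from counting or from expression was not tested. In CPM (counts scaled to the library total), the summed Ewing sarcoma markers were lower with siFLI1 in every line. They stood at 1460 to 1470 against 5330 to 5410 CPM in TC-32 and 1630 to 1680 against 3690 to 3780 CPM in TC-71. In A673 they stood at 2220 to 2310 against 5220 to 5360 CPM. CAV1 in TC-71 was the exception, slightly higher with a log2 fold change of 0.16. Summed levels of 10 blood, epithelial and endothelial markers stayed between 0.91 and 8.43 CPM in every library, and CD3E never passed 3 counts. These sums were higher with siFLI1 in TC-32 (7.43 to 8.43 against 4.67 to 5.57 CPM) and in A673 (2.48 to 2.66 against 0.91 to 1.42 CPM), and their part in the results was not tested. Nothing in the labels says that libraries of a group came from separate cultures, so the p-values measure the spread between these libraries only.

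In TC-32 and TC-71 most tested NOTCH members rose when the fusion was depleted. NOTCH2, JAG1 and LFNG rose in all 3 lines and HES1 fell in all of them. NOTCH1, NOTCH3, JAG2 and HEY1 moved in opposite directions in different lines, although NOTCH1 changed little anywhere and the fall of NOTCH3 in TC-32 was slight. HEY2 was too low to test in any line, and DLL1 too low in TC-71. A gene is called higher or lower here when its Benjamini-Hochberg adjusted p over all genes tested was under 0.05. In TC-32, 6 of 9 tested members were higher and 3 lower, against 41.3% and 40.1% of all 16227 genes tested. In TC-71, 6 of 8 were higher and 2 lower, against 36.8% and 35.0% of 17085 genes. In A673, 4 of 9 were higher and 2 lower, against 35.6% and 35.4% of 18444 genes. The depletion therefore changed most tested genes, and being called is in itself no feature of the members. The median log2 fold change of the tested members was 1.48 in TC-71, 0.80 in TC-32 and 0.02 in A673, beside 0.0181, 0.0222 and -0.0066 over all genes tested there. In bulk libraries such as these, a change of RNA per cell and a change in how many cells hold a transcript cannot be told apart.

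**Figure D1:**
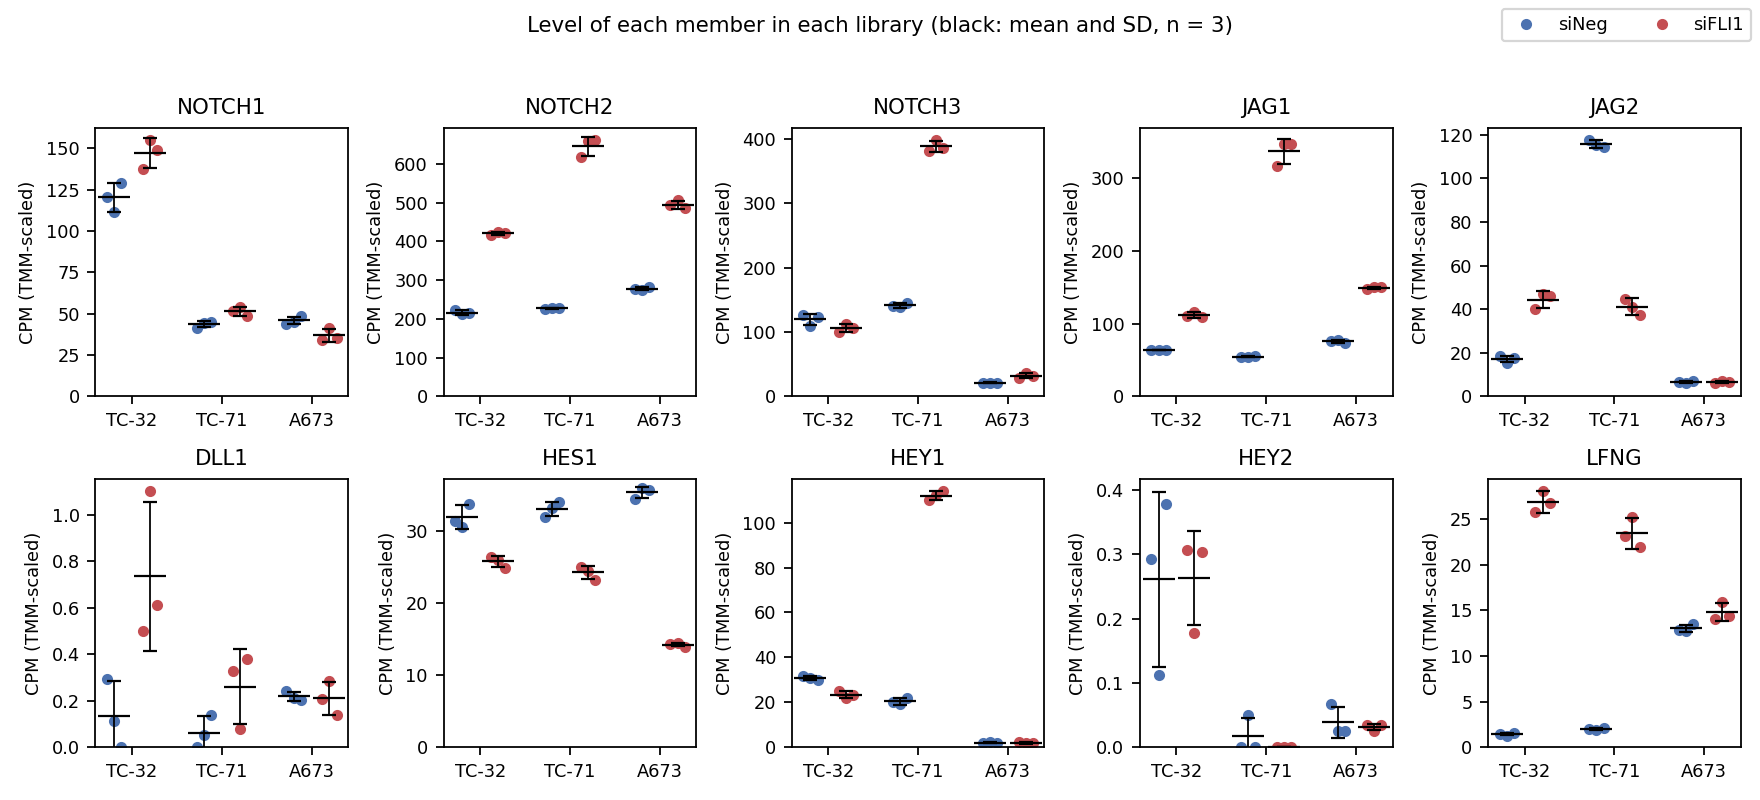
Level of each of the 10 members in the 18 libraries, in CPM scaled by TMM (vertical axes, each from 0), by line and siRNA; points are libraries and black bars the mean and SD of 3. NOTCH2 and JAG1 are higher in every siFLI1 library of every line, HES1 is lower in every one, and NOTCH3 and HEY1 stand out in the siFLI1 libraries of TC-71.

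All 3 siFLI1 libraries lay above all 3 siNeg libraries for 6 members of TC-32, 6 of TC-71 and 4 of A673, where the same held for 41.8%, 37.9% and 36.6% of all genes tested. They lay below for 2 members in each line, beside 40.7%, 36.0% and 37.0% of all genes. NOTCH3 in TC-32 was the called member whose libraries overlapped. In the sentences that follow, levels are CPM scaled by TMM and listed by replicate number, and positions are those of GENCODE release 44 on GRCh38. The 3 tables were normalized separately, so levels set side by side across lines are a description only.

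NOTCH2, a receptor of broad expression (ENSG00000134250, chromosome 1, 119911553 to 120100779, minus strand), was the receptor that rose in every line. In TC-32 its level went from 222, 212 and 216 CPM with siNeg to 417, 423 and 421 CPM with siFLI1, a log2 fold change of 0.96 (SE 0.0394, adjusted p = 4.97e-17). The TC-71 libraries went from 225.1, 226.9 and 228.9 CPM to 618, 658 and 662 CPM, a log2 fold change of 1.51 (SE 0.0417, adjusted p = 2.75e-23). In A673 the levels were 278, 274 and 281 CPM with siNeg and 493, 506 and 486 CPM with siFLI1, a log2 fold change of 0.83 (SE 0.0335, adjusted p = 1.47e-12). The siNeg libraries of each line were tight, and no siFLI1 library came near them. Reads of NOTCH2 can be split with its near-identical copy NOTCH2NL, which held 345 to 611 counts per library in TC-32, 2655 to 3173 in A673 and only 5 to 37 in TC-71. Summing the 2 rows, an alternative chosen after seeing the data, left NOTCH2 higher in A673 (log2 fold change 0.79) and TC-32 (0.91). For TC-71 the sum is no check, because NOTCH2NL held too few counts there to move the value, 1.51 with or without it. Whether the counting program used for TC-71 left out reads shared by the 2 copies was not tested.

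NOTCH1, the most studied receptor of the family (ENSG00000148400, chromosome 9, 136494433 to 136546048, minus strand), moved little and not in the same direction everywhere. In TC-32 it rose from 121, 111 and 129 CPM to 137, 155 and 149 CPM, a log2 fold change of 0.29 (SE 0.0548, adjusted p = 4.2e-05). The level in TC-71 rose from 41.7, 44.4 and 45 CPM to 51.9, 53.9 and 48.8 CPM, a log2 fold change of 0.24 (SE 0.0581, adjusted p = 0.000653). In A673 it fell from 44.1, 45.3 and 48.6 CPM to 34.2, 41.3 and 35.5 CPM, a log2 fold change of -0.31 (SE 0.0625, adjusted p = 0.000298). The groups did not overlap in any line, although each change was 1.24-fold or less.

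NOTCH3, a receptor best known from vascular smooth muscle (ENSG00000074181, chromosome 19, 15159038 to 15200995, minus strand), responded most in TC-71. There it rose from 140, 139 and 145 CPM to 381, 398 and 386 CPM, a log2 fold change of 1.46 (SE 0.0424, adjusted p = 9.67e-23). A673 started lower, at 20.2, 21.5 and 21.4 CPM, and reached 28.8, 36.7 and 31.4 CPM, a log2 fold change of 0.62 (SE 0.0698, adjusted p = 7.4e-07). In TC-32 the levels were 126, 110 and 123 CPM with siNeg and 100.3, 113 and 106 CPM with siFLI1, a log2 fold change of -0.17 (SE 0.0553, adjusted p = 0.00855). These TC-32 libraries overlapped, and without siNeg replicate 1 the fall was -0.14 with an adjusted p of 0.0511, past the threshold no longer. NOTCH3 was thus raised in TC-71 and A673 and at most slightly lower in TC-32.

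**Figure D2:**
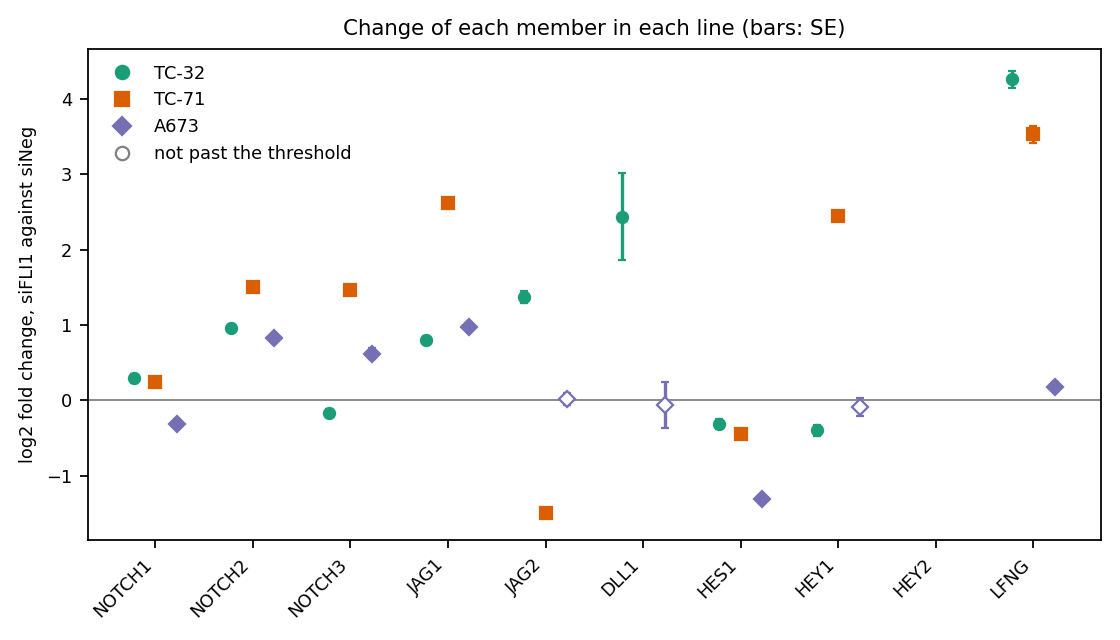
Log2 fold change of siFLI1 against siNeg (vertical axis) for the tested members in each line, with SE as bars; open symbols did not pass the adjusted p of 0.05, and HEY2 was tested nowhere. LFNG in TC-32 and TC-71 reached 4.26 and 3.53, and JAG2 lay at 1.37 in TC-32 and -1.50 in TC-71.

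Per kilobase of exon, the make-up of the 3 receptors shifted. The length is that of all annotated exons of a gene together, which can exceed that of the transcripts in use. Shares and orders between genes depend on this length, while the fold change of a gene does not. NOTCH2 took 36.7 ± 1.30% of the summed receptor level in TC-32 with siNeg and 52.1 ± 1.32% with siFLI1 (SD, n = 3 per group), while NOTCH3 went from 36.1 ± 0.870% to 23.5 ± 0.636%. In TC-71, NOTCH1 went from 10.9 ± 0.316% to 4.90 ± 0.252%, with NOTCH3 at 46.9 ± 0.470% and then 49.2 ± 0.555%. A673 was a NOTCH2 line throughout, with 73.7 ± 0.711% and then 82.3 ± 1.42% of the sum. In each of these comparisons all libraries of one group lay on one side, and an exact two-sided permutation test gave p = 0.1, the smallest that 3 against 3 allows. The share of NOTCH3 in A673, 9.95 ± 0.313% and 9.54 ± 0.867%, overlapped between the siRNAs (exact permutation p = 0.5).

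JAG1, a Jagged ligand found in many tissues (ENSG00000101384, chromosome 20, 10637684 to 10673999, minus strand), rose in every line. Its TC-71 libraries went from 53.8, 54.6 and 55.6 CPM to 317, 347 and 348 CPM, a log2 fold change of 2.62 (SE 0.0486, adjusted p = 1.74e-27) or 6.17-fold. In TC-32 it rose from 64.0, 64.3 and 64.3 CPM to 111, 116 and 109 CPM, a log2 fold change of 0.80 (SE 0.0486, adjusted p = 1.31e-13). In A673 it rose from 76.0, 77.6 and 74.1 CPM to 148, 150 and 151 CPM, a log2 fold change of 0.98 (SE 0.0369, adjusted p = 6.24e-13). Every siFLI1 library was above every siNeg library, and TC-71, which had the lowest control level, ended highest. JAG1 shares 3.3% of its exon bases with a transcript of the other strand.

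JAG2, the other Jagged ligand (ENSG00000184916, chromosome 14, 105140982 to 105168824, minus strand), moved in opposite directions in TC-32 and TC-71. The level in TC-71 fell from 118, 115 and 115 CPM to 44.9, 41.1 and 37.2 CPM, a log2 fold change of -1.50 (SE 0.0574, adjusted p = 8.61e-20). In TC-32 it rose from 18.3, 15.5 and 17.7 CPM to 40.0, 47.0 and 46.3 CPM, a log2 fold change of 1.37 (SE 0.0768, adjusted p = 4.14e-14). A673 held 6.45, 6.29 and 7.09 CPM with siNeg and 6.19, 7.20 and 6.74 CPM with siFLI1, a log2 fold change of 0.02 (SE 0.0759, adjusted p = 0.813). After depletion, TC-32 and TC-71 thus held similar JAG2 levels, from opposite starting points. JAG2 shares 7.3% of its exon bases with another gene on the same strand.

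DLL1, a Delta ligand (ENSG00000198719, chromosome 6, 170282206 to 170306565, minus strand), was close to the limit of detection in all libraries. In TC-32 it had 7, 3 and 0 counts with siNeg and 13, 37 and 18 with siFLI1, a log2 fold change of 2.44 (SE 0.573, adjusted p = 0.000495). With single libraries left out it ranged from 1.88 without siNeg replicate 3 to 3.55 without siNeg replicate 1, and it was 2.00 without siFLI1 replicate 2. In TC-71 it had 0, 1 and 4 counts with siNeg and 8, 2 and 14 with siFLI1 and did not enter the test. In A673 it had 29, 26 and 24 counts, then 24, 33 and 16, a log2 fold change of -0.06 (SE 0.309, adjusted p = 0.872). DLL1 shares 9.7% of its exon bases with FAM120B on the opposite strand.

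The leading ligand therefore turned over in TC-71. Per kilobase of exon, JAG1 made 24.5 ± 0.543% of the sum of JAG1, JAG2 and DLL1 there with siNeg and 84.8 ± 1.85% with siFLI1, and JAG2 went from 75.4 ± 0.618% to 15.1 ± 1.84% (SD, n = 3, exact permutation p = 0.1 for each, the smallest possible). The share of JAG1 went the other way in TC-32, from 71.8 ± 1.92% to 62.8 ± 2.05%. In A673 it went from 88.2 ± 0.846% to 93.6 ± 0.456%, and in both lines the groups did not overlap (exact permutation p = 0.1 each). JAG1 was the leading ligand transcript in TC-32 and A673 with either siRNA, and in TC-71 with siFLI1.

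**Figure D3:**
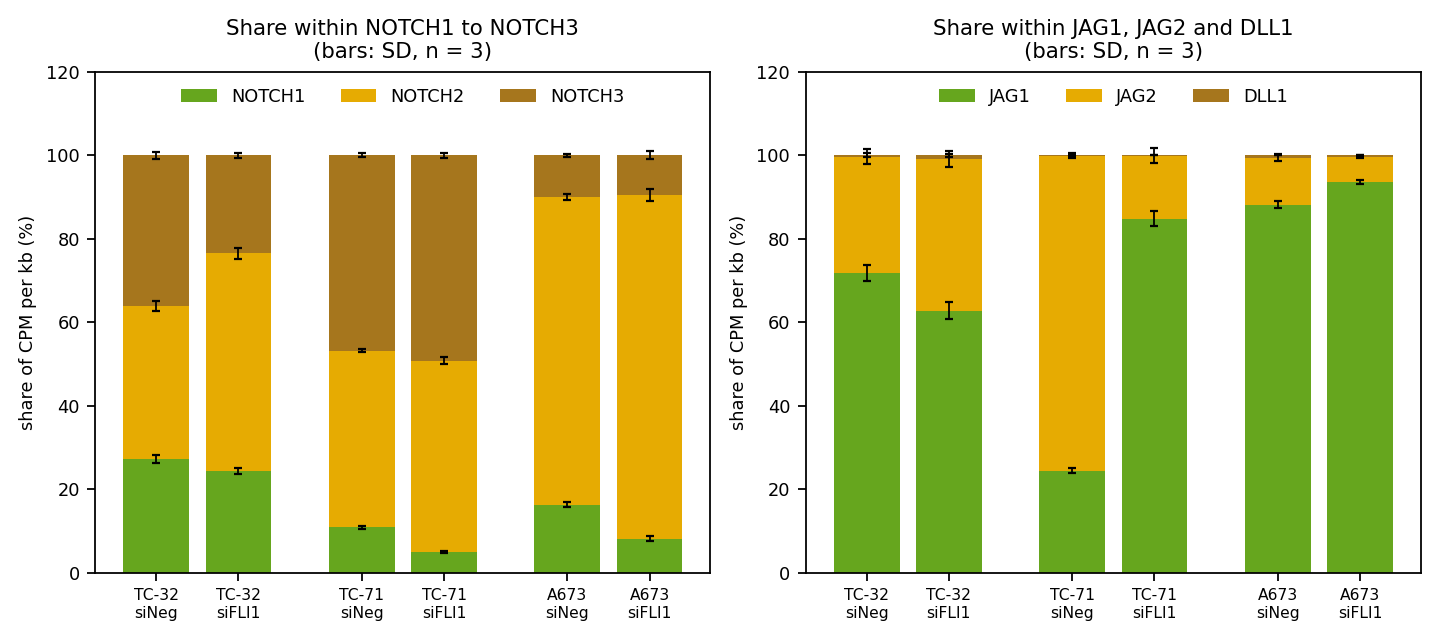
Share of each receptor (left) and each ligand (right) in the level per kilobase of exon of its set, in percent (vertical axis), for each line and siRNA; stacked bars are means of 3 libraries and error bars the SD of each share. JAG1 goes from 24.5% to 84.8% in TC-71, and NOTCH2 holds 73.7% or more of the receptors in A673.

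LFNG, the Fringe enzyme of the set (ENSG00000106003, chromosome 7, 2512529 to 2529177, plus strand), showed the largest fold changes among the members in TC-32 and TC-71. In TC-32 it rose from 1.42, 1.28 and 1.52 CPM to 25.7, 28.1 and 26.7 CPM, a log2 fold change of 4.26 (SE 0.113, adjusted p = 6.79e-21) or 19.1-fold. The level in TC-71 rose from 1.97, 1.93 and 2.12 CPM to 23.1, 25.2 and 21.9 CPM, a log2 fold change of 3.53 (SE 0.113, adjusted p = 8.85e-22) or 11.6-fold. A673 already held 12.8, 12.8 and 13.5 CPM with siNeg and reached 14.1, 15.9 and 14.4 CPM, a log2 fold change of 0.18 (SE 0.0583, adjusted p = 0.0102). The rise in A673 was small, and scaled by library size alone it was 0.08 with an adjusted p of 0.225, because that scaling moves every log2 fold change of A673 by -0.10.

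HES1, a basic helix-loop-helix repressor and the best known NOTCH target (ENSG00000114315, chromosome 3, 194136148 to 194138732, plus strand), fell in every line. In A673 it fell from 34.5, 36.0 and 35.8 CPM to 14.3, 14.5 and 14 CPM, a log2 fold change of -1.31 (SE 0.0456, adjusted p = 2.14e-13). The level in TC-71 fell from 32, 33.3 and 34 CPM to 25.1, 24.5 and 23.3 CPM, a log2 fold change of -0.45 (SE 0.0656, adjusted p = 5.43e-07). In TC-32 it fell from 31.4, 30.6 and 33.8 CPM to 26.5, 26.0 and 24.9 CPM, a log2 fold change of -0.31 (SE 0.0653, adjusted p = 0.000148). All siFLI1 libraries lay below all siNeg libraries of their line. NOTCH2, JAG1 and LFNG were higher in those same siFLI1 libraries.

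HEY1, a related repressor (ENSG00000164683, chromosome 8), behaved differently from HES1. The level in TC-71 rose from 20.1, 19.2 and 22.0 CPM to 110.0, 112 and 114 CPM, a log2 fold change of 2.45 (SE 0.0584, adjusted p = 7.72e-25) or 5.45-fold. In TC-32 it fell from 31.8, 31.0 and 29.9 CPM to 24.9, 21.9 and 23.4 CPM, a log2 fold change of -0.40 (SE 0.068, adjusted p = 8.33e-06). In A673 it was low, at 1.90, 2.30 and 1.97 CPM with siNeg and 2.24, 1.76 and 1.78 CPM with siFLI1, a log2 fold change of -0.09 (SE 0.121, adjusted p = 0.503). HEY1 thus rose in TC-71 alone among the 3 lines, and the A673 libraries overlapped. HEY2, the third repressor of the set and a gene known from heart and vessel development (ENSG00000135547, chromosome 6, 125747664 to 125761269, plus strand), never had more than 9 counts. It had 3 to 9 counts per library in TC-32, 3 to 8 in A673 and at most 1 in TC-71, where a count of 0 allows up to 3 counts per library, and no difference was detectable at this depth.

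**Figure D4:**
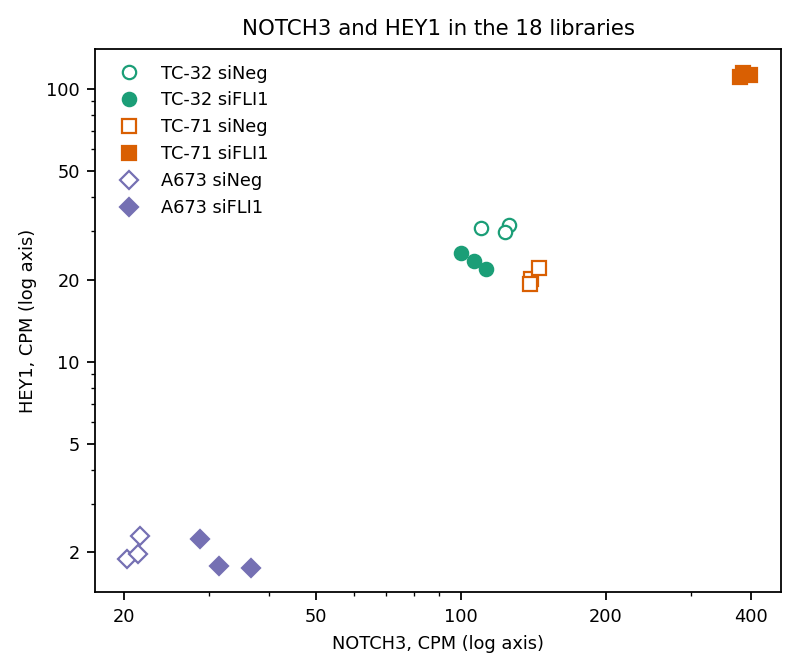
Level of HEY1 (vertical axis) against NOTCH3 (horizontal axis) in CPM, both on log axes, in the 18 libraries; open symbols are siNeg and filled symbols siFLI1. The 3 siFLI1 libraries of TC-71 stand alone at the upper right and all A673 libraries lie at the lower left.

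NOTCH3 and HEY1 had the most alike levels of any 2 members. Over the 18 libraries, Pearson's r of log2 CPM was 0.976, and among 10908 genes whose mean log2 CPM reached 1 in each line HEY1 was the gene most like NOTCH3, followed by MNT at 0.973. DZIP1L and then NOTCH3 were most like HEY1, both at 0.976. These values and those below describe 6 groups of 3 libraries rather than 18 independent points, so they carry no p. They also take in level differences between the lines, which differed in counting program, medium and depth. In A673, NOTCH3 rose with siFLI1 (log2 fold change 0.62) while HEY1 did not pass the test (-0.09). TANC1 and DCLK2 were most like NOTCH2 (0.992 and 0.990), GADD45B and ABHD2 most like JAG1 (both 0.98), and TYK2 and IGSF3 most like JAG2 (0.987 and 0.978). NRF1 and NFYC were most like HES1 (0.95 and 0.939), RP3-368A4.6 and ZNF618 most like LFNG (0.979 and 0.97), and POLR2J3 and RP11-958N24.1 most like NOTCH1 (both 0.990).

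Ordered per kilobase of annotated exon, the leading members changed with the siRNA, although the order of different genes depends on the lengths used. In TC-32, HES1 led with 15.5 ± 0.799 CPM per kilobase under siNeg, ahead of NOTCH2 (12.9 ± 0.313) and NOTCH3 (12.7 ± 0.919), whose libraries overlapped. Under siFLI1 NOTCH2 led at 25.1 ± 0.193, and HES1, JAG1, NOTCH1 and NOTCH3 followed between 12.5 and 11.3, each overlapping its neighbour. In TC-71, JAG2 led at 18.1 ± 0.260 under siNeg and stood below LFNG under siFLI1, at 6.42 ± 0.606, with libraries that overlapped those of LFNG. There NOTCH3 led at 41.3 ± 0.944, followed by NOTCH2 (38.6 ± 1.47) and JAG1 (36.3 ± 1.86), which overlapped each other. In A673, HES1 (17.2 ± 0.379) and NOTCH2 (16.6 ± 0.213) overlapped at the top under siNeg, and under siFLI1 NOTCH2 led at 29.5 ± 0.608, then JAG1 (16.1 ± 0.132) and HES1 (6.92 ± 0.117). DLL1 and HEY2 were the 2 lowest members in every group, at most 0.193 CPM per kilobase.

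The response of each member was then compared across lines, by interaction contrasts fitted to all 18 libraries together. Of 9 members tested, all 9 differed for the pair of TC-32 and A673, 6 for TC-32 with TC-71 and 8 for A673 with TC-71, beside 62.1%, 53.6% and 51.6% of all 19610 genes tested. The response of HEY1 was lower in TC-32 than in TC-71, a difference of -2.86 on the log2 scale (SE 0.101, adjusted p = 2.29e-22). It was also lower in A673 than in TC-71, a difference of -2.57 (SE 0.12, adjusted p = 5.65e-19). JAG2 differed by 2.87 between TC-32 and TC-71 (SE 0.101, adjusted p = 2.88e-22). The response of LFNG in TC-32 exceeded that in A673 by 4.10 (SE 0.131, adjusted p = 7.16e-24). Its response in A673 was lower than that in TC-71, a difference of -3.38 (SE 0.124, adjusted p = 8.05e-22).

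NOTCH3 rose more in TC-71 than in A673, the difference of A673 and TC-71 being -0.87 (SE 0.0894, adjusted p = 3.14e-09), and HES1 fell further in A673 than in TC-71, a difference of -0.90 (SE 0.0775, adjusted p = 5.92e-12). NOTCH1 did not pass the test between TC-32 and TC-71 (0.05, SE 0.0931, adjusted p = 0.708), nor did HES1 (0.13, SE 0.0828, adjusted p = 0.179). The differences of JAG1 (-0.15) and HEY1 (-0.28) between TC-32 and A673 had adjusted p values of 0.0292 and 0.0429 that ran from 0.00139 to 0.686 and from 0.0128 to 0.26 over the alternatives, with calls lost on leaving out single libraries. That of NOTCH2 between the same lines (0.15, adjusted p = 0.0119) was 0.08 with an adjusted p of 0.149 when only the 12 libraries of both lines were fitted, and 0.13 with an adjusted p of 0.0535 without A673 siFLI1 replicate 3. TC-71 was counted with a different program than the other lines, and A673 had its own medium, greater depth and no stated time. FLI1 also fell by a different amount in each line, 2.05-fold in TC-32, 2.77-fold in TC-71 and 4.25-fold in A673. In any such difference these cannot be told apart from the line.

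The sequence just upstream of the RefSeq start is set side by side for members that moved in the same direction in every line. Any part of these sequences in that direction was not tested. Windows are the 250 bases before the RefSeq start on GRCh38.p14, 5′ to 3′ on the strand of the gene, and 8 of the 10 members had a window that could be used. The NOTCH2 window lies inside the GENCODE span of that gene given above, and which starts these cells use was not tested. Capitals mark TGGGAA, the core of the site bound by RBPJ.
HES1 (chr3:194135898-194136147, plus strand): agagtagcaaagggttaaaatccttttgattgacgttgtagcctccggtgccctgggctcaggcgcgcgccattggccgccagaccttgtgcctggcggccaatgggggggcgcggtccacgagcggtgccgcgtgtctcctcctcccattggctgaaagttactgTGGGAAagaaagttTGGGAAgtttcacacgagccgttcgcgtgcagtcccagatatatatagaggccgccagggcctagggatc
LFNG, upstream start (chr7:2512279-2512528, plus strand): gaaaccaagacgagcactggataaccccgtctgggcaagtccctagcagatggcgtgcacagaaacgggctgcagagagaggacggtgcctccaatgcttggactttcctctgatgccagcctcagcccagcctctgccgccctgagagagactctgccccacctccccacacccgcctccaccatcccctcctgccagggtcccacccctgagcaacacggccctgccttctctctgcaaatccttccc
LFNG, downstream start (chr7:2517613-2517862, plus strand): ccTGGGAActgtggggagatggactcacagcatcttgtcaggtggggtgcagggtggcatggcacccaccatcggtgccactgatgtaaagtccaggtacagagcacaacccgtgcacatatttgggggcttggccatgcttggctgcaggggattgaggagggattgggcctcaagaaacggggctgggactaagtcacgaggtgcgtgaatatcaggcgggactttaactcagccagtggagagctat
JAG1 (chr20:10674000-10674249, minus strand): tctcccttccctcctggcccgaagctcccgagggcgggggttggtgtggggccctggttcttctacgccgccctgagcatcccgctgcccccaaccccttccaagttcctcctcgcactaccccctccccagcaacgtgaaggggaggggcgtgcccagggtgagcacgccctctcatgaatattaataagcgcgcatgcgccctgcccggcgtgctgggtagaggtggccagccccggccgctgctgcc
NOTCH2 (chr1:120069663-120069912, minus strand): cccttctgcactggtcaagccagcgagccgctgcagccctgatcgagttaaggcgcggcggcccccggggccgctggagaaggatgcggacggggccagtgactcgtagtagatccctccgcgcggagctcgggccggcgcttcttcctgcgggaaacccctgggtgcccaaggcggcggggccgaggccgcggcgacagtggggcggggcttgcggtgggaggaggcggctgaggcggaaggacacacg

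The HES1 window held TGGGAA 2 times on its own strand, with first bases 84 and 70 bases before the start. LFNG had it once in the window of the downstream start, near its far end, and the HEY2 window, not shown, had it once on the opposite strand, 213 bases before the start. The windows of JAG1, NOTCH2, NOTCH1, NOTCH3 and JAG2 had none on either strand, and 20.8% of 35116 promoter windows of this length held at least 1. CACNAG, the N box that HES repressors bind, overlapped none of these and occurred 3 times before HES1, with first bases 165 (opposite strand), 132 and 58 bases before the start. It also occurred once before the downstream LFNG start (53 bases) and once before NOTCH3 (211 bases), where 32% of windows held it. CCGGAA, a longer form of the ETS core GGAA (14.5% of windows), the doubled GGAAGGAA (3.06%) and the E box CACGTG (6.34%) were in none of the members' windows on either strand. The shorter GGAA was not counted and does occur in these windows, as inside TGGGAA and in that of NOTCH2. A match describes letters only and is no evidence of binding.

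A wider list of 48 genes of the pathway also held changes shared by the lines and changes that differed between them. In TC-32, 27 of 43 tested were higher and 11 lower, beside 41.3% and 40.1% of all genes tested. In TC-71 the counts were 27 and 9 of 43, beside 36.8% and 35.0%, and in A673 25 and 13 of 46, beside 35.6% and 35.4%. The median log2 fold changes of the list were 0.47, 0.32 and 0.18 in that order of lines, and those over all genes tested 0.0222, 0.0181 and -0.0066. Over the lines, 22 of the 48 were called the same way wherever they were tested, 8 were called in opposite directions, and 18 did neither. Of the 9 genes for proteases that cut the receptor, 7 were higher in each line, with medians of 0.71, 0.62 and 0.53, against the same shares and medians of all genes. APH1A, a subunit of gamma-secretase named here after its values were seen, was the 1 lower protease gene in TC-32 (-0.16) and TC-71 (-0.17). PSENEN, another subunit of gamma-secretase and likewise named after its values were seen, passed the test in no line (-0.10, -0.12 and -0.07).

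Among the other genes listed as targets, members of the HES and HEY families again split. HEYL, a relative of HEY1, rose in every line, by a log2 fold change of 2.04 in TC-71 (SE 0.0711), 1.68 in A673 (SE 0.0726) and 1.25 in TC-32 (SE 0.0983). Its levels went from 5.49, 5.31 and 5.18 CPM to 12, 13.1 and 12.8 CPM in TC-32, and from 12, 10.6 and 11 CPM to 44.9, 46.6 and 46.7 CPM in TC-71. In A673 they went from 2.95, 2.80 and 3.04 CPM to 8.92, 9.72 and 9.49 CPM. HEYL therefore rose in TC-32, where HEY1 fell, and in A673, where HEY1 did not pass the test. HES4 rose by 0.80, 0.59 and 0.47 in the same order (SE 0.101, 0.13 and 0.163), although its TC-32 libraries overlapped. HES6, a HES family member that opposes HES1 in neural differentiation, fell by 1.43, 1.08 and 1.70 in that order, and its groups did not overlap.

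NRARP, a feedback inhibitor of NOTCH signalling and itself a direct target, fell in every line. Its levels went from 5.28, 5.92 and 6.02 CPM to 1.15, 1.13 and 1.08 CPM in TC-32, a log2 fold change of -2.35 (SE 0.17, adjusted p = 3.97e-12). In TC-71 they went from 13.9, 14.3 and 13.9 CPM to 7.61, 7.92 and 6.47 CPM, a log2 fold change of -0.95 (SE 0.0974, adjusted p = 6.6e-10). In A673 they went from 0.923, 1.00 and 0.742 CPM to 0.309, 0.318 and 0.306 CPM, a log2 fold change of -1.51 (SE 0.189, adjusted p = 2.39e-06). The groups did not overlap in any line. Among the targets named so far, HES1, HES6 and NRARP were thus called lower in every line and HEYL and HES4 higher, while HEY1 differed by line. Each direction took in 35.0% to 41.3% of all genes tested in a line. RBPJ, the DNA-binding partner of the cut receptor, changed little, with 0.19 in TC-32 (adjusted p = 0.00594), 0.11 in TC-71 (adjusted p = 0.145) and 0.35 in A673 (adjusted p = 2.65e-06).

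**Figure D5:**
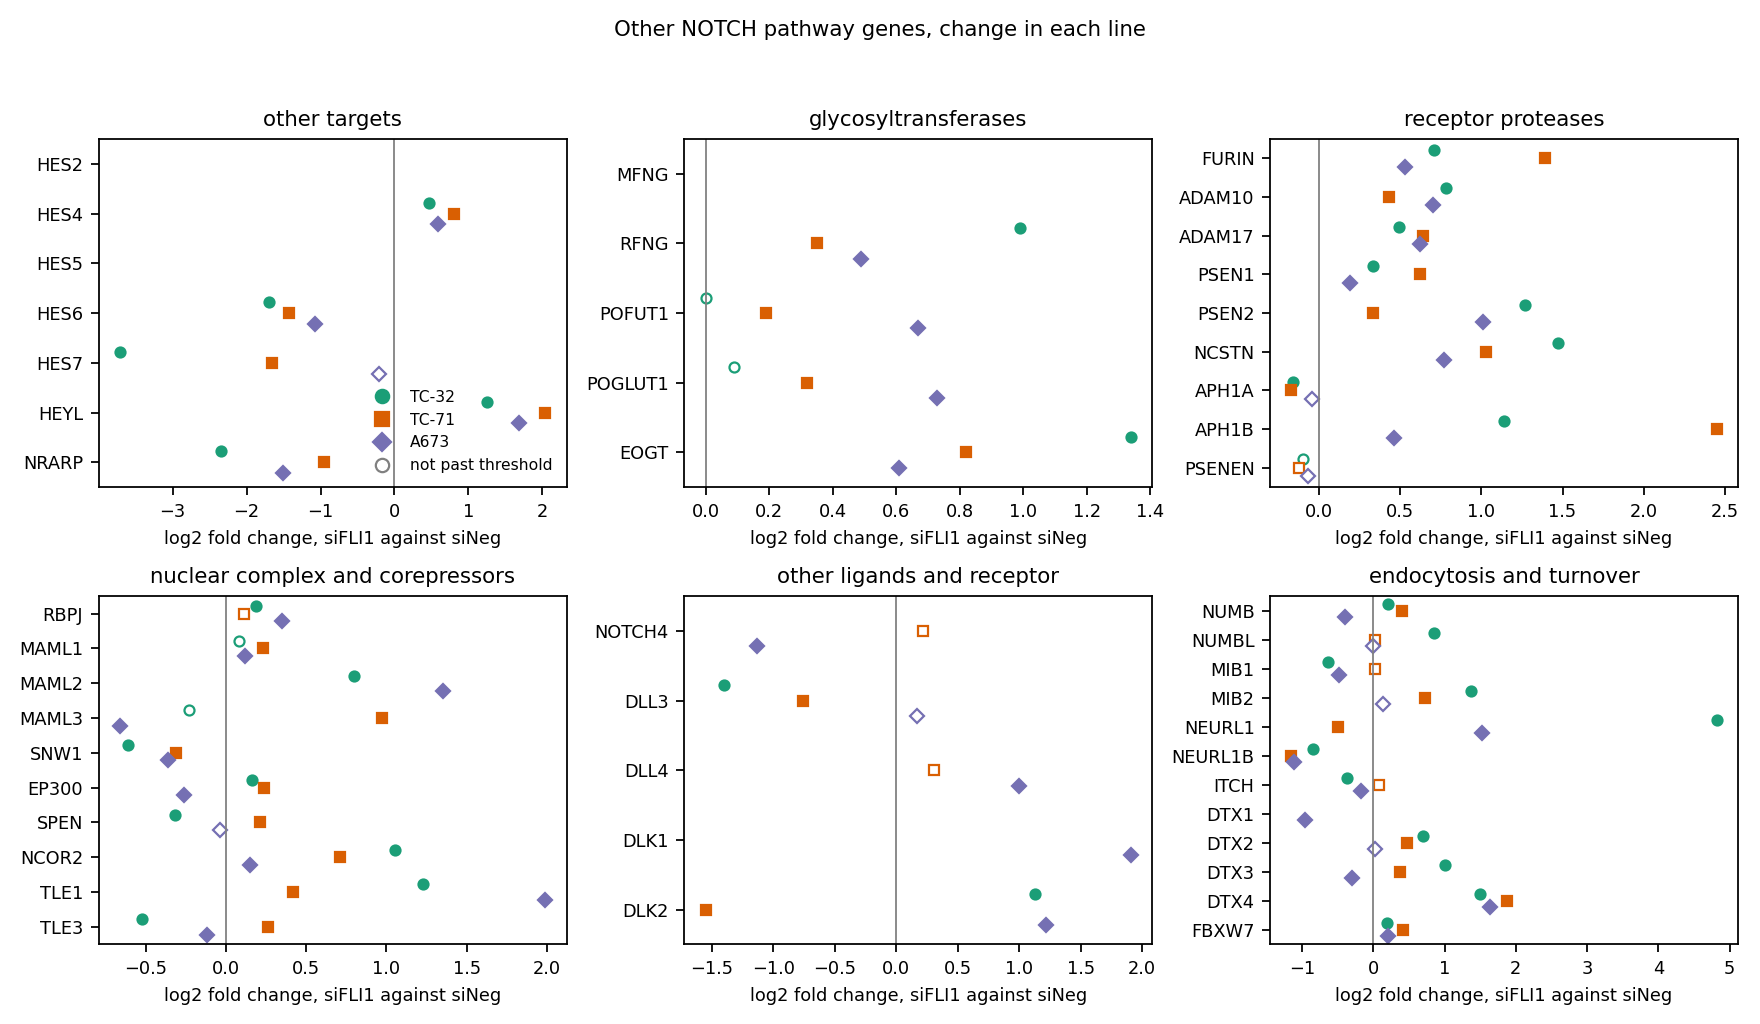
Log2 fold change of siFLI1 against siNeg (horizontal axes, which differ between panels) for the other 48 pathway genes, by list and line; open symbols did not pass the adjusted p of 0.05, and no symbol is drawn for a gene not tested or with at most 3 counts in every library of a group. HEYL and HES4 lie to the right of 0 and HES6 and NRARP to the left in every line, and 7 of 9 receptor proteases lie to the right with filled symbols in every line.

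The other receptor and ligands were low and differed by line. NOTCH4, an endothelial receptor, fell in A673 from 0.798, 0.844 and 0.852 CPM to 0.386, 0.378 and 0.376 CPM (log2 fold change -1.13, SE 0.171, adjusted p = 1.97e-05) and did not pass the test in TC-71 (0.22, adjusted p = 0.379). DLL3, a Delta ligand that inhibits signalling within its own cell, fell in TC-32 (-1.40, adjusted p = 9.01e-06) and TC-71 (-0.76, adjusted p = 0.00224) but stood at 0.17 in A673 (adjusted p = 0.555). DLL4, the endothelial Delta ligand, passed the test in A673 (1.00, adjusted p = 0.0391), where its libraries overlapped, and did not in TC-71 (0.31, adjusted p = 0.488). In TC-32 it was too low for the test of that line, with 2, 1 and 1 counts under siNeg and 12, 17 and 11 under siFLI1, which do not overlap. The fit over all lines, which kept DLL4, gave a larger effect in TC-32 than in A673 (difference 2.04, SE 0.828, adjusted p = 0.0296) and than in TC-71 (2.67, SE 0.811, adjusted p = 0.00479), both resting on these few counts. DLK2, a non-canonical ligand, rose in TC-32 (1.13) and A673 (1.22) and fell in TC-71 (-1.55).

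DLK1, a non-canonical ligand and imprinted gene, had 0 counts in the TC-32 siNeg libraries and 36, 40 and 44 counts with siFLI1, at least 11.1-fold higher against a floor of 3 counts per library. In A673 it rose from 3, 8 and 10 counts to 34, 17 and 26, a log2 fold change of 1.91 (SE 0.435, adjusted p = 0.000891). MFNG, a second Fringe enzyme, had 0 counts with siNeg in A673 and 18, 20 and 23 with siFLI1, at least 7.04-fold higher by the same floor. In TC-32 MFNG went from 1, 3 and 0 counts to 19, 23 and 20, and in TC-71 it had at most 1 count. MFNG thus became detectable in both lines other than TC-71. NEURL1, a ubiquitin ligase that acts on ligands, rose from 0.251, 0.0754 and 0.295 CPM to 5.48, 6.80 and 5.18 CPM in TC-32 (log2 fold change 4.82, adjusted p = 3.59e-14), rose in A673 (1.52, adjusted p = 1.18e-05) and fell in TC-71 (-0.50, adjusted p = 1.36e-06). DTX4, an E3 ligase of the Deltex family, rose in every line, by a log2 fold change of 1.87 in TC-71 (SE 0.103), 1.64 in A673 (SE 0.062) and 1.5 in TC-32 (SE 0.192).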

How the data were processed

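Stranded mRNA libraries of 3 Ewing sarcoma lines were read from 3 count tables of 58381 rows. The authors deposited expected counts for TC-32 and A673, which the table names attribute to RSEM, and counts for TC-71, which the table name attributes to Subread. Neither is scaled to depth, and no library was pooled. Per the submitters' processing notes, the tools were cutadapt 4.4, STAR 2.7.3, featureCounts, Subread 2.0.3 and limma 3.38.3, with the build GRCh38. The annotation release and strand setting are not given in the sources used here, so reads of genes that overlap on opposite strands may be shared. The line of the TC-32 and TC-71 columns rests on the table name. ES-5838 and siERG, named in the series text, are not analysed here.

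Groups came from the sample labels, which give no batch. Expected counts were rounded. Each line was fitted alone on its whole table in R 4.3.3 with edgeR 4.0.16, using filterByExpr, TMM, robust quasi-likelihood dispersions and Benjamini-Hochberg adjustment over all genes tested. Fold changes use the default prior count of 0.125. Differences between lines were interaction contrasts in a model with a mean per group, and shares were compared by exact permutation tests. Each pair of replicates differed by more than sampling noise (lowest chi-square per degree of freedom 2.52). On simulated counts with 200 genes changed 2-fold and a dispersion of 0.01, the fit of TC-32 recovered 95.5% and those of TC-71 and A673 94.5% each. The contrasts recovered 86% (TC-32 with A673), 75.5% (TC-32 with TC-71) and 83.5% (A673 with TC-71), counted without regard to direction. False calls made up 1.55% to 4.55% of the calls in the lines and 3.82% to 6.18% in the contrasts. Far more genes changed in the real data, so the simulation does not describe a change of that extent. The 3-count floor covers counting error only, since reads carry no molecular identifiers.

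Alternatives in scaling were RLE factors and library size alone, and in filtering no filter or a minimum mean of 10 counts. Others were limma-voom (limma 3.58.1), DESeq2 1.42.0, unrounded expected counts, a replicate block, each library left out in turn, and, for differences, only the 12 libraries of the lines compared. Exon lengths, taken over all annotated exons of a gene, and positions came from GENCODE release 44 (GRCh38). Promoters came from RefSeq (GRCh38.p14), read with Python 3.11.15. All 10 members are named. Of the wider list, genes are named that were called the same way with at least a 2-fold change in each line where tested, or in opposite directions with at least 2-fold in 1 line, and also NOTCH4, DLL3, DLL4, RBPJ, NRARP, HEYL and HES4. The members and lists were chosen with earlier results of these data known.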

Additional observations from a re-analysis of the deposited data

Results flagged for a closer look

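For 23 of 27 pairs of a member and 2 lines, the effect of siFLI1 differed between the lines by the interaction test of edgeR with all 18 libraries. In 6 of these the gene was higher with siFLI1 in the one line and lower in the other. For NOTCH3 this rests on its 1.12-fold fall in TC-32, where the libraries overlapped and the call was lost without siNeg replicate 1. For NOTCH1 it rests on changes of 1.24-fold or less. Values are differences of log2 fold changes, the first line minus the second, and the background shares of genes that differ are those given in the results above.

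Between TC-32 and A673, NOTCH1 differed by 0.63 and NOTCH3 by -0.76, each with opposite directions in the lines. In the same pair NOTCH2 differed by 0.15, JAG1 by -0.15, JAG2 by 1.38 and DLL1 by 2.54. HES1 differed there by 1.03, HEY1 by -0.28 and LFNG by 4.10.

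Between TC-32 and TC-71, NOTCH3 differed by -1.63, JAG2 by 2.87 and HEY1 by -2.86, each with opposite directions. NOTCH2 differed by -0.56, JAG1 by -1.83 and LFNG by 0.72 without a change of direction.

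Between A673 and TC-71, NOTCH1 differed by -0.58 with opposite directions. NOTCH2 differed by -0.71, NOTCH3 by -0.87 and JAG1 by -1.68. JAG2 differed by 1.49, HES1 by -0.90, HEY1 by -2.57 and LFNG by -3.38.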

How the results depend on the processing

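Of 359 values of the 26 member fold changes under alternatives, 352 kept their direction and their side of the threshold, 2 lost the call and 5 reversed. The lost calls were NOTCH3 in TC-32 without siNeg replicate 1 (-0.14, adjusted p = 0.0511) and LFNG in A673 by library size alone (0.08, adjusted p = 0.225). The reversals concern genes never called in A673: JAG2 was -0.081 by library size alone and ranged from -0.026 to 0.084 with a library left out, and DLL1 ranged from -0.33 to 0.16. Of 732 values of the 27 differences between lines, 689 were unchanged in this sense, 30 lost the call, 10 gained it and 3 reversed. Reversals came with a library left out, where NOTCH1 between TC-32 and TC-71 ranged from -0.013 to 0.093 and DLL1 from -1.06 to 1.61. The count of members with a lower effect in TC-32 than in A673, 3 in the reported fit, was 1 by library size alone, with RLE factors, without a filter or with a mean of at least 10 counts, and 1 to 3 with a library left out, the members lost being JAG1 and HEY1. HES1 between TC-32 and TC-71 passed the threshold with RLE factors (0.20, adjusted p = 0.0384), library size alone (0.20, adjusted p = 0.0489) and DESeq2 (0.21, adjusted p = 0.0232). DLL1 between A673 and TC-71 passed it in 7 alternatives, with adjusted p from 0.0221 to 0.0498, and 5 of these left out TC-32 siNeg replicate 1 or 3, TC-71 siNeg replicate 3, TC-71 siFLI1 replicate 2 or A673 siFLI1 replicate 2. JAG1 between TC-32 and A673 lost its call without TC-32 siNeg replicate 1, 2 or 3, TC-32 siFLI1 replicate 1 or 3, A673 siNeg replicate 1 or 3, or A673 siFLI1 replicate 2. HEY1 lost it without TC-32 siNeg replicate 1 or 2, TC-32 siFLI1 replicate 2 or 3, TC-71 siNeg replicate 1, TC-71 siFLI1 replicate 2 or 3, A673 siNeg replicate 1 or 3, or A673 siFLI1 replicate 1. The cause was not tested.

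With the replicate number as a block, all 26 fold changes and 26 of 27 differences kept their call, HEY1 between TC-32 and A673 being the exception (-0.28, adjusted p = 0.064). The numbers do not pair the libraries: same-numbered libraries correlated by -0.0784 to 0.0422 in their deviations from the group means, and 3 of 9 correlated best with their own number. DLL1 and HEY2 had few counts in the libraries of every line, which limits the precision of their values.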

Other observations

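MAML2, a Mastermind coactivator of the cut receptor, was looked at after its values were seen. In TC-71 it had 0, 2 and 0 counts with siNeg and 40, 41 and 56 with siFLI1, while TC-32 held 47.2, 48.6 and 47.1 CPM and then 85.1, 86.0 and 77.5 CPM. In A673 it went from 29.3, 28.7 and 30.4 CPM to 77.0, 73.8 and 74.6 CPM, a log2 fold change of 1.35 (edgeR adjusted p = 5.36e-14). The rise was called in all 3 lines, and the TC-71 level after depletion, 1.57 ± 0.0642 CPM (SD, n = 3), stayed far under the control level of the other lines in tables that were normalized separately.

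NEURL1B, a ligase related to NEURL1 and also picked after seeing its values, fell in every line, with a log2 fold change of -1.15 in TC-71, -1.12 in A673 and -0.85 in TC-32. NCSTN, the nicastrin subunit of gamma-secretase chosen in the same way, rose by 1.03, 0.77 and 1.47 in the same order. HES7, a HES gene of the somite clock, was likewise named after its values were seen. It fell in TC-32 (-3.71, SE 0.533) and TC-71 (-1.66) and stood at -0.21 in A673, where it did not pass the test (adjusted p = 0.62). The TC-32 value rests on 33, 32 and 15 counts with siNeg and 0, 3 and 4 with siFLI1, so its size is imprecise.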
